A study of Mus musculus with 8 samples.

Results

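Cholesterol synthesis, storage and transport genes were compared in liver between mice heterozygous for Mtap and wild-type mice. The group is a list of 31 genes, drawn up with earlier results of these data known, and a gene was taken as measured where the array annotation held a probe set carrying its symbol and no other. That was the case for 28 of the 31, out of 18193 genes represented on the arrays. Acat2, Soat1 and Soat2 had no such probe set and were not analysed here. Where a gene had several probe sets, the brightest on average over the 8 arrays stands for it, a choice that does not use genotype.

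The study held 8 livers, 1 array per animal, from male C57BL/6 mice aged 92 to 101 days. The 4 heterozygous animals (labelled MTAP+/-) carried 1 intact copy of Mtap and the 4 controls (MTAP+/+) carried an unaltered pair. Mtap encodes methylthioadenosine phosphorylase, which recycles the methylthioadenosine left by polyamine synthesis. The labels read here do not say how the allele was altered, whether the animals had fed or at what hour tissue was taken. They name no litters, so p-values measure the spread between these animals. Values are log2 RMA signals, a summary of the brightness of several probes after background correction and quantile normalisation, and differences are heterozygous minus wild-type.

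Liver cells make cholesterol from acetyl-CoA by way of mevalonate, squalene and lanosterol, and the genes of these enzymes share control by the transcription factor SREBP-2, which works together with NF-Y and is activated when cell sterol is low. Oxysterols that form when sterol is plentiful activate the LXR receptors, whose targets export cholesterol into bile and to lipoproteins. Cholesterol taken up with lipoproteins is freed in the lysosome and carried onward by soluble and membrane proteins. In whole liver RNA, fewer cells of a type and less RNA per cell cannot be told apart.

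The 4 Mtap probe sets lay at 57.6%, 49.95%, 32.2% and 35.3% of wild-type in heterozygous liver, and their groups did not overlap. Signals of 7 hepatocyte markers, among them Alb, Ttr and Cps1, lay between 11.02 and 14.52 over the 8 livers, where array medians were 3.92 to 3.98, and none of the 7 had an unadjusted p under 0.05. Cholangiocyte markers (4 measured) and lymphocyte markers (6 measured) reached at most 5.86 each. Of the lymphocyte markers all 6 were above wild-type on average, and Cd79b (0.56) and Nkg7 (0.32) had an unadjusted p under 0.05. Of 8 Kupffer cell markers 4 had an unadjusted p under 0.05, all higher in heterozygous liver (Adgre1, Cd68, Timd4 and Cd5l). Without such a p, Clec4f (-0.27) and Csf1r (-0.02) were lower on average, and Vsig4 (0.05) and Marco (0.72) higher. The linear signals of all 8 markers summed to 4146 to 5718 in heterozygous and 3590 to 4294 in wild-type livers. The clock score, the mean of 8 genes that peak toward evening (such as Dbp) minus the mean of 5 genes that are low then (such as Arntl), averaged 1.74 ± 0.50 (SD, n = 4) over heterozygous livers and 0.215 ± 0.421 over controls, with no overlap (two-sided exact permutation p = 0.0286, the smallest possible with 4 against 4). The genes of this score were listed with earlier results of these data known, so its p describes the separation and adds no support to it. Dbp differed by 2.35 (limma adjusted p = 0.234) and Arntl by -1.51 (0.11). All 10 acute phase genes were above wild-type on average, and 4 of them (Mt1, Mt2, Saa3 and Socs3) had an unadjusted p under 0.05. Mt1 differed by 3.15 (limma adjusted p = 0.167) and Saa1 by 1.53 (0.595). The part of the clock genes, the acute phase genes and the Kupffer cell and lymphocyte markers in the results below was not tested.

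The direction of the mean differences varied with the role of the cholesterol genes. The synthesis enzymes mostly had lower signals in heterozygous liver (16 of 18 measured, median change -0.12; 12 of 18 when all probe sets per gene were averaged), while the genes for export and intracellular transport had higher ones. All 3 exporters (Abcg5, Abcg8 and Abca1, median 0.58) and all 4 genes of lysosomal release and sterol transport (median 0.27) were above wild-type on average. Of the 3 genes of lipoprotein uptake and esterification 1 was below and 2 were above (median 0.04). Over all genes 54.7% had a change below 0 and 45.3% one above 0, and the median change was -0.02. None of the members passed limma's adjusted threshold of 0.05 in either direction (0 of 28, smallest adjusted p = 0.174), where 9 of 18193 genes (0.0495%) did. At an unadjusted p under 0.05 the same fit listed 7 members, 3 lower (Mvd, Mvk and Tm7sf2) and 4 higher (Stard4, Abcg5, Abcg8 and Abca1), a share of 25% where 9.14% of all genes were listed (4.74% lower and 4.4% higher). Mean signals of at least 6 were held by 27 of the 28 members but by 7014 of the 18193 genes. The share among genes of like signal was not computed. The 0 of 28 also held with eBayes in its trend and robust form, with array weights and with each of the 8 arrays left out. Differences are therefore given as measured values with intervals, not as called changes.

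**Figure D1:**
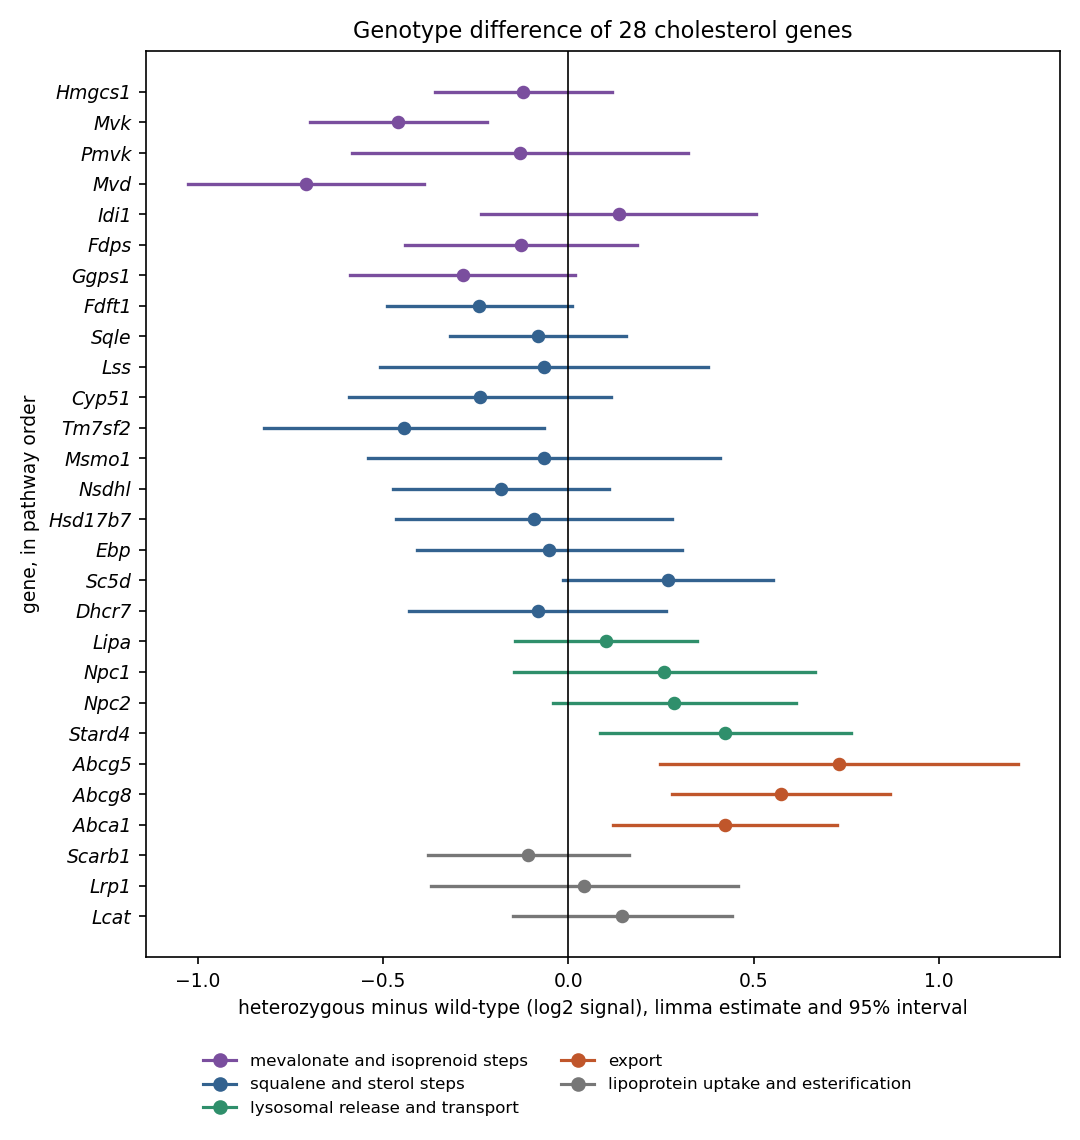
Heterozygous minus wild-type log2 signal of the 28 measured genes in pathway order, as limma's estimate (point) with its 95% interval (line), over 4 livers per genotype. Most synthesis genes lie left of 0, and all genes of lysosomal release, transport and export lie right of it. Intervals of 7 genes leave out 0, with no adjustment for the number of genes.

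Of the mevalonate genes, Mvd and Mvk stood furthest below wild-type. Mvd, mevalonate diphosphate decarboxylase, which makes isopentenyl diphosphate, gave signals of 6.20, 6.74, 6.47 and 6.26 in heterozygous livers 1 to 4 and of 7.26, 6.94, 7.35 and 6.96 in wild-type livers 1 to 4. Every heterozygous liver lay below every wild-type liver, with a gap of 0.20 between the nearest animals. The difference was -0.71 ± 0.14 (SE), or 61.2% of wild-type (95% interval 49.1 to 76.4), the difference furthest below 0 of the 28 genes, and did not pass over all genes (limma adjusted p = 0.174, exact permutation p = 0.0286). A second Mvd probe set differed by -0.50.

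Mvk, mevalonate kinase, which adds the first phosphate to mevalonate, gave 7.26, 7.43, 7.37 and 7.15 in heterozygous and 7.87, 7.56, 7.80 and 7.82 in wild-type livers. The groups were again apart, with a gap of 0.13. The difference was -0.46 ± 0.11 (SE), or 72.8% of wild-type (61.6 to 85.9), with a limma adjusted p of 0.234 and an exact permutation p of 0.0286. The second Mvk probe set differed by -0.29. Groups did not overlap for 5 of the 28 members, where this held for 4.64% of all genes. Mvd and Mvk were the 2 below wild-type (2.7% of all genes). Any gene with separate groups has the exact permutation p of 0.0286, so this p restates the separation and adds no support to it.

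The other mevalonate and isoprenoid genes moved less, and their groups overlapped. Hmgcs1, the cytosolic HMG-CoA synthase that supplies the pathway, averaged 12.25 ± 0.11 (SD, n = 4) with 1 intact Mtap copy and 12.37 ± 0.15 in controls, a difference of -0.12 whose interval on the linear scale ran from 78.0% to 108.4% of wild-type. A dim Hmgcs1 probe set, at a mean of 2.70, differed by 0.41. Pmvk, which acts between Mvk and Mvd, differed by -0.13 with livers from 8.23 to 9.30, so the enzymes on either side of it stood further from wild-type than it did. The difference of Pmvk turned to 0.04 without heterozygous liver 3. Idi1, which isomerises isopentenyl diphosphate, was the only mevalonate gene with a higher mean (0.14), and turned to -0.01 without wild-type liver 1, whose signal of 10.16 was the lowest of the 8. Fdps, which makes farnesyl diphosphate, differed by -0.13. Ggps1, which makes the geranylgeranyl group used to anchor proteins in membranes, differed by -0.28 ± 0.14 (SE, limma adjusted p = 0.582), and 2 of its 3 other probe sets, at signals near the array medians, differed by 0.51 and 0.17.

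The upstream sequences of Mvd and Mvk are shown because these genes stood furthest below wild-type. They are the 250 bases before the RefSeq transcription start (build GRCm38.p6), for Mvd chr8:122443423-122443672 on the minus strand and for Mvk chr5:114444019-114444268 on the plus strand, written 5′ to 3′ along the gene. Capitals mark matches to the NF-Y box, CCAAT, read on either strand (ATTGG is its reverse complement).
Mvd: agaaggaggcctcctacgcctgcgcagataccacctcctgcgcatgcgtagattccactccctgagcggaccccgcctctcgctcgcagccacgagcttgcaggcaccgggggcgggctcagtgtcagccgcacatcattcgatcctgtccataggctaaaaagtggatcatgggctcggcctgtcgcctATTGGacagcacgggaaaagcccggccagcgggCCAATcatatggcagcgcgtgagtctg
Mvk: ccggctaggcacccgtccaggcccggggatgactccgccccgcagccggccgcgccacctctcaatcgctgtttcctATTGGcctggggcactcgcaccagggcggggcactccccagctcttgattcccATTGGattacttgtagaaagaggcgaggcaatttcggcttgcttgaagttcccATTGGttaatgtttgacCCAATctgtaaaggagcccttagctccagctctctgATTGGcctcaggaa
The Mvd stretch holds 2 such boxes and the Mvk stretch 5, with neither the letters TCACNCCAC, a form of the sterol regulatory element that SREBP binds, nor the E-box CACGTG, in either orientation.

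Boxes of this kind were common among the members. RefSeq promoter windows, from 250 bases before to 50 after a start, matched 22 of the 28 genes with 26 windows. Some windows overlap, as alternative starts of a gene or, for Abcg5 and Abcg8, as neighbours, and a shared box counts in each. A CCAAT box stood in 20 of the 26 windows (76.9%), in 15 of 18 windows of synthesis genes (83.3%) and in 5 of 8 of the other genes (62.5%), beside 37.4% of all 32851 windows. The sterol regulatory element as spelled above stood in 1 member window, that of Hmgcs1 (3.85%, against 1.24% of all windows), and the E-box in 4 (15.4%, against 7.15%), those of Abca1, Dhcr7, Hsd17b7 and Sc5d. Mvk had 5 boxes, Hmgcs1 and Nsdhl had 4 each, and Mvd had 2. Whether the number of boxes goes with the difference of a gene was not tested. The boxes and motifs counted here are matches of letters, not measured binding.

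**Figure D2:**
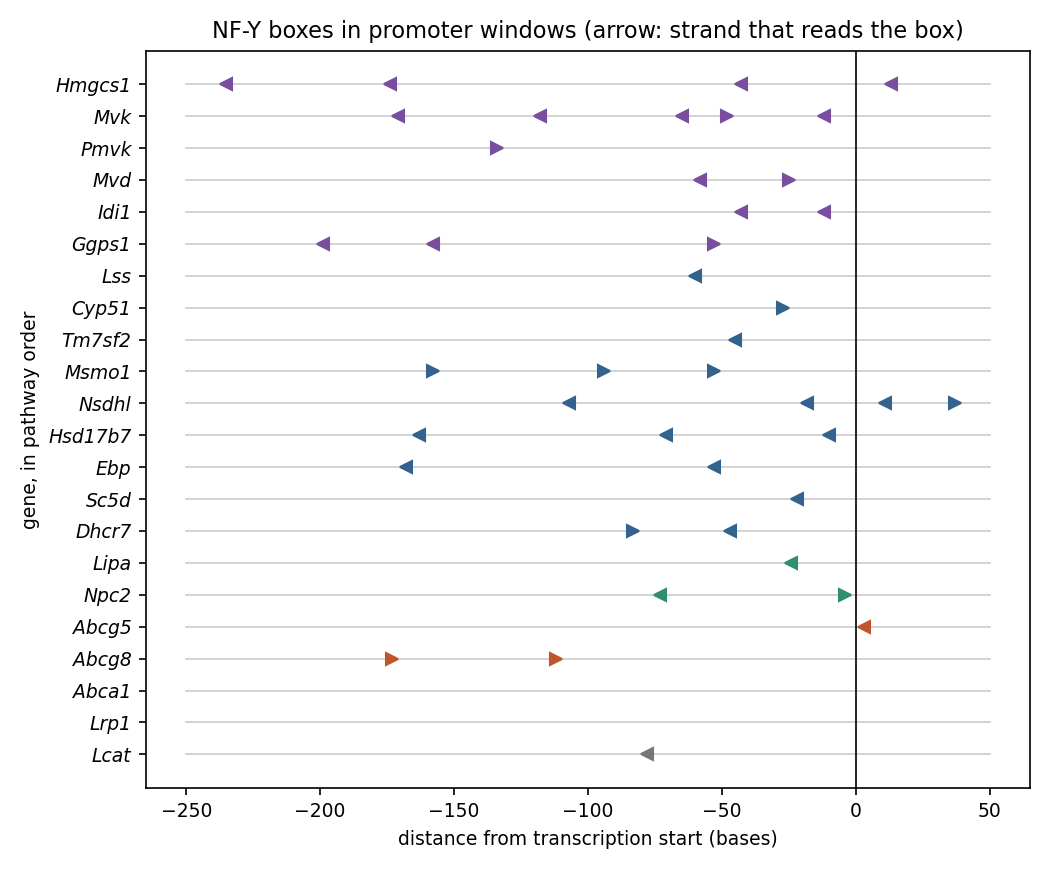
Positions of the NF-Y box (CCAAT, either strand) in the promoter windows of 22 genes, as distance in bases from the transcription start (0). An arrow to the right marks a box read on the gene's strand and an arrow to the left one on the other strand, and windows of alternative starts of a gene are drawn on its line. Of these genes Abca1 and Lrp1 have no box, and Mvk has the most with 5.

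Among the enzymes from squalene to cholesterol, 10 of 11 had a lower mean and Tm7sf2 stood furthest from wild-type. Tm7sf2, a sterol reductase of the step after lanosterol demethylation, gave 9.30, 9.81, 9.08 and 9.30 in heterozygous and 10.03, 9.76, 9.999 and 9.48 in wild-type livers. Heterozygous liver 2 lay among the wild-type livers, and wild-type liver 4 below it, so the groups overlapped. The difference was -0.44 ± 0.17 (SE), or 73.5% of wild-type (56.55 to 95.6; limma adjusted p = 0.459), and it was -0.59 without heterozygous liver 2 and -0.35 without heterozygous liver 3.

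The first committed enzymes also had overlapping groups. Fdft1, squalene synthase, differed by -0.24 ± 0.11 (SE, limma adjusted p = 0.567), and its 3 other probe sets by -0.13, -0.29 and -0.24. Sqle, squalene epoxidase, a rate-controlling step, averaged 8.82 ± 0.03 (SD, n = 4) in the heterozygous animals and 8.90 ± 0.18 in the controls, a difference of -0.08 with an interval from 80.2% to 111.4% of wild-type. The 4 heterozygous livers lay within 8.78 to 8.83 and the wild-type livers on both sides of them. Lss, which closes squalene epoxide into lanosterol, differed by -0.07, but its heterozygous livers lay at 8.03, 8.86, 8.05 and 7.93. Liver 2 thus stood far above the other three, and without it the difference of Lss was -0.28.

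Groups overlapped as well for the enzymes that trim lanosterol. Cyp51, the lanosterol demethylase, differed by -0.24, with the lowest signal of its 8 livers, 8.35, in heterozygous liver 2. Its other probe sets differed by -0.37 and -0.20. Msmo1, which oxidises the methyl groups at carbon 4, differed by -0.07, and Nsdhl, which removes them in the next reactions, by -0.18. Hsd17b7, which reduces the resulting ketone, differed by -0.09, and its other probe sets by -0.37, -0.20 and -0.10. Ebp, which shifts the double bond of the ring, differed by -0.05, and Dhcr7, which makes cholesterol in the last step of the Kandutsch-Russell branch, by -0.08. Sc5d, which introduces a double bond just before Dhcr7 acts, was the only enzyme from squalene to cholesterol with a higher mean. It averaged 12.08 ± 0.17 (SD, n = 4) in the heterozygous animals and 11.81 ± 0.20 in the controls, a difference of 0.27 ± 0.13 (SE, limma adjusted p = 0.572), while 1 of its 2 other probe sets differed by -0.06. The adjusted p of the 11 enzymes ran from 0.459 to 0.957.

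The sterol enzymes did not all go the same way in heterozygous liver 2. Whether they follow each other over all livers was not tested. In heterozygous liver 2 the signals of Lss, Ebp, Sc5d and Dhcr7 were the highest of the 8 livers, at 8.86, 12.14, 12.32 and 10.28. In the same liver those of Fdft1, Cyp51 and Msmo1 were the lowest, at 10.25, 8.35 and 10.81. Among wild-type livers the mean deviation of the 11 sterol enzymes ran from -0.19 in liver 2 to 0.21 in liver 3. The mean deviation of the 18 synthesis genes from their own means over all livers was -0.08, 0.02, -0.15 and -0.12 in heterozygous livers 1 to 4, and 0.11, -0.09, 0.22 and 0.09 in wild-type livers. Heterozygous livers 1 and 2 therefore lay above wild-type liver 2 in this mean, and the genotypes overlapped. Wild-type liver 2 held the lowest signal for 5 of the 18 genes and wild-type liver 3 the highest for 7. Without wild-type liver 2 the number of lower members at an unadjusted p under 0.05 went from 3 to 5, the additional ones being Fdft1 and Nsdhl. Lower members with separate groups went from 2 to 4 without heterozygous liver 2 and to 5 without wild-type liver 2. Without heterozygous liver 2 the members at an unadjusted p under 0.05 still numbered 3 lower and 4 higher.

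**Figure D3:**
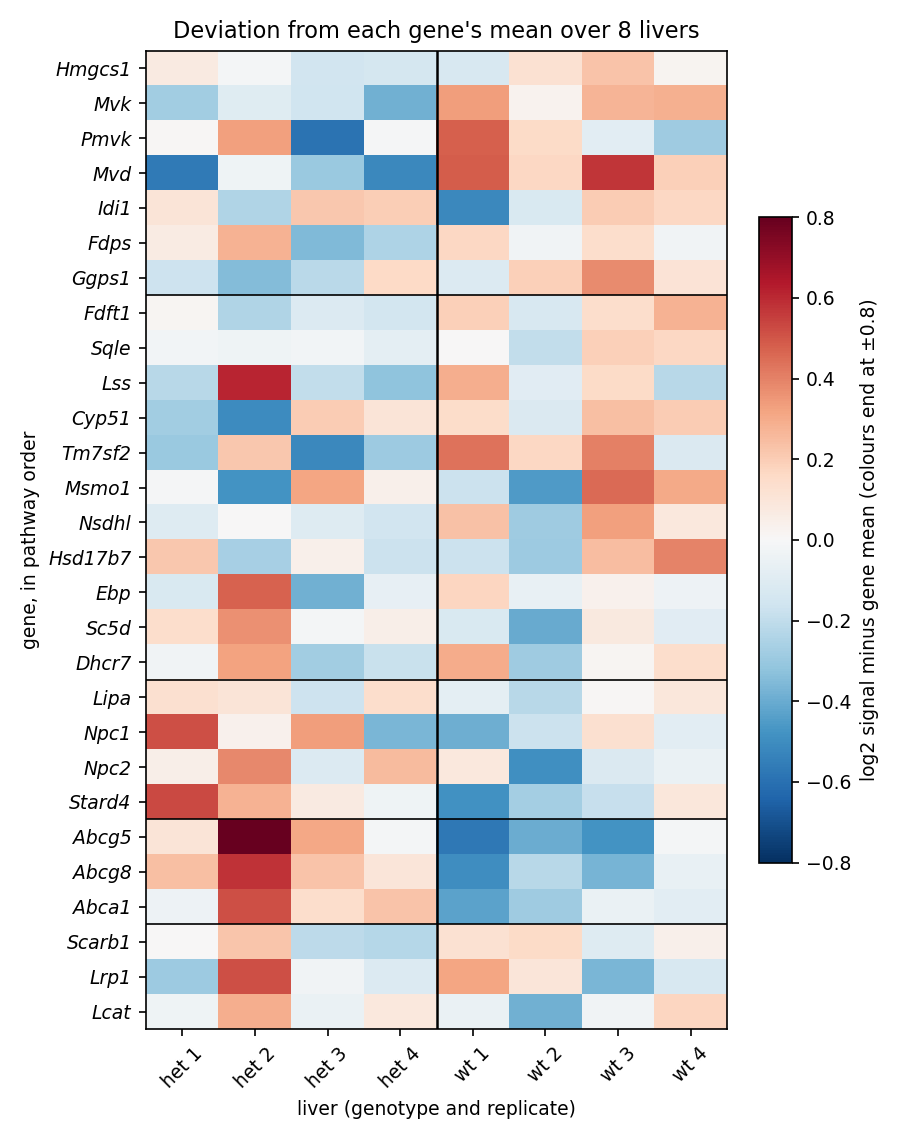
Log2 signal of each of the 28 genes (rows, in pathway order) in each liver (columns), minus that gene's mean over the 8 livers, with red above and blue below it and colours ending at 0.8 in either direction. Mvd and Mvk are below their means in all heterozygous livers, the exporters are lowest in wild-type liver 1, and heterozygous liver 2 is high in Lss, Ebp and the exporters and low in Cyp51 and Msmo1.

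Genes of lysosomal release and intracellular transport all had higher means in heterozygous liver, with overlapping groups. Stard4, which carries cholesterol through the cytosol, gave 9.85, 9.60, 9.39 and 9.28 in heterozygous and 8.83, 9.05, 9.13 and 9.41 in wild-type livers. Wild-type liver 4 lay above heterozygous livers 3 and 4. The difference was 0.42 ± 0.15 (SE), a 1.34-fold level (95% interval 1.06 to 1.70; limma adjusted p = 0.429), and the other probe sets differed by 0.28 and 0.50. Its difference lay on the other side of 0 from those of most synthesis genes.

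The lysosomal genes were closer to wild-type. Npc2, the soluble protein that hands cholesterol to the lysosomal membrane, differed by 0.29 ± 0.15 (SE, limma adjusted p = 0.61), and another of its probe sets of like signal by 0.26. Npc1, the membrane transporter that receives that cholesterol, differed by 0.26 ± 0.18 (SE, limma adjusted p = 0.729), with heterozygous livers at 8.53, 8.04, 8.34 and 7.64. Heterozygous livers 2 and 4 were thus within the wild-type range of 7.62 to 8.13, and without liver 4 the difference was 0.42. Lipa, the lysosomal acid lipase that frees cholesterol from its esters, differed by 0.10, with other probe sets at 0.24 and -0.14.

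All 3 exporters had higher signals in heterozygous liver, with a gap of 0.16 between the groups for Abcg8 and narrower gaps for Abcg5 and Abca1. Abcg5 and Abcg8 pair up to form the transporter that secretes cholesterol into bile. Abcg8 gave 8.10, 8.44, 8.09 and 7.96 in heterozygous and 7.36, 7.64, 7.49 and 7.80 in wild-type livers. All heterozygous livers lay above all wild-type livers, with a gap of 0.16. The difference was 0.58 ± 0.13 (SE), a 1.49-fold level (95% interval 1.22 to 1.83; limma adjusted p = 0.232, exact permutation p = 0.0286).

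Abcg5 gave 8.57, 9.53, 8.78 and 8.45 in heterozygous and 7.90, 8.07, 7.99 and 8.45 in wild-type livers. The groups were separate by only 0.002, between heterozygous liver 4 and wild-type liver 4. The difference was 0.73 ± 0.22 (SE), a 1.66-fold level (1.19 to 2.32; limma adjusted p = 0.336, exact permutation p = 0.0286). It was 0.50 without heterozygous liver 2, the highest liver for all 3 exporters. In both genes wild-type liver 4 was the highest of the wild-type livers, liver 1 the lowest, and heterozygous liver 4 the lowest of the heterozygous livers.

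Abca1, which moves cholesterol to apolipoprotein A-I to start HDL, gave 10.25, 10.81, 10.43 and 10.52 in heterozygous and 9.86, 10.01, 10.24 and 10.21 in wild-type livers. The gap between the groups was 0.01, with heterozygous liver 1 next to wild-type liver 3. The difference was 0.42 ± 0.14 (SE), a 1.34-fold level (1.09 to 1.65; limma adjusted p = 0.365, exact permutation p = 0.0286), and 0.32 without heterozygous liver 2. The 2 other Abca1 probe sets had mean signals of 5.18 and 3.23 and differed by 0.02 and 0.03, so the mean over its probe sets differed by 0.16. Abca1, Npc2 and Lipa are also made by macrophages. In heterozygous liver 2 the Kupffer cell markers Adgre1 and Marco were at 8.93 and 9.97, the highest of the 8 livers. Cd5l, Timd4 and Cd68 were also highest there. Clec4f and Vsig4 were at 7.06 and 8.20 in that liver, the lowest of the 8, and Csf1r was at neither end. The part of macrophages in the values of Abca1, Npc2 and Lipa was not tested. The exporters were the 3 of 28 members whose heterozygous livers all lay above wild-type, against 1.95% of all genes.

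**Figure D4:**
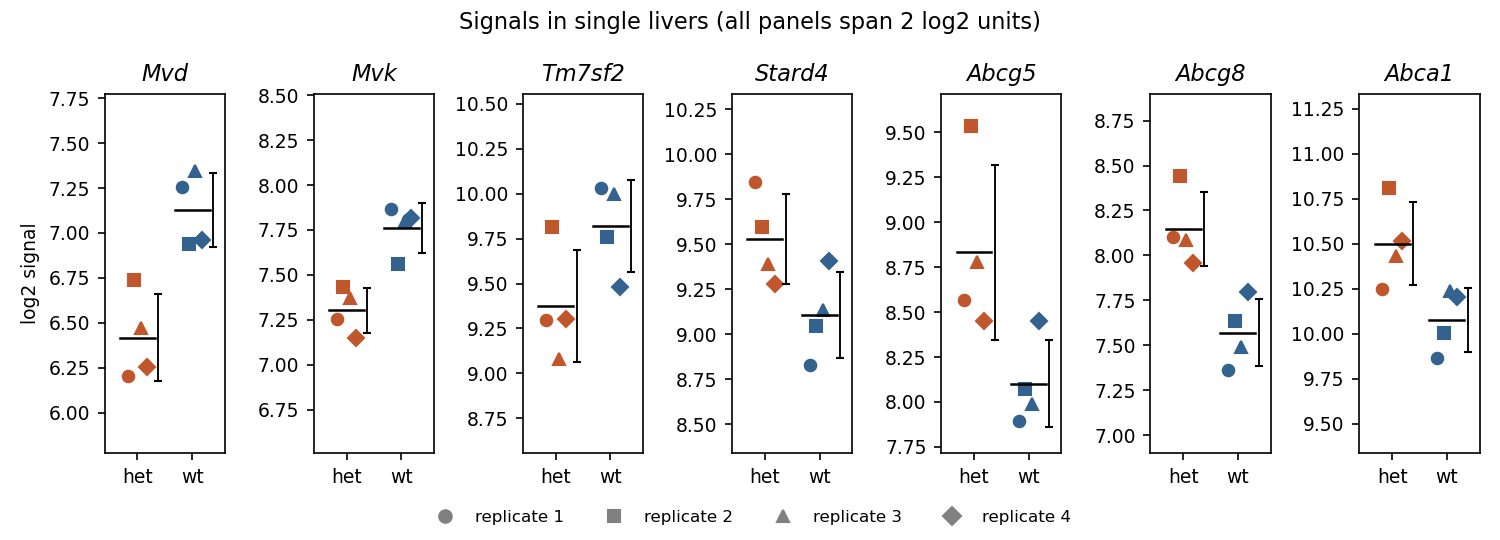
Log2 signals of the 7 members with an unadjusted limma p under 0.05 in single livers, 4 heterozygous (het) and 4 wild-type (wt), with the group mean (black line) and SD (bar beside it). All panels span 2 log2 units. Genotypes are separate for Mvd, Mvk, Abcg8, Abca1 and, by 0.002, Abcg5, and they overlap for Tm7sf2 and Stard4.

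Abcg5 and Abcg8 lie head to head, and the stretch between their starts is shown because the pair had the highest differences of the 28 genes. In the RefSeq table (GRCm38.p6) Abcg5 starts at 84683011 on the minus strand of chromosome 17 and Abcg8 110 bases away at 84683121 on the plus strand. The 109 bases between them, chr17:84683012-84683120, are written 5′ to 3′ on the Abcg8 strand, in lower case as none of the 3 motifs lies in them.
Abcg5/Abcg8: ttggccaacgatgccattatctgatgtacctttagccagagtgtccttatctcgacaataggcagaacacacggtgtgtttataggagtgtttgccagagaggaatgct
The promoter window at this Abcg8 start holds 2 CCAAT boxes, both further upstream than this stretch. The nearer box lies directly beside the stretch and is also the box counted for Abcg5. A second, upstream start of Abcg8 in the table has a window with none.

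Genes of lipoprotein uptake and plasma esterification did not differ beyond the spread between livers. Scarb1, the HDL receptor that takes up cholesteryl ester, differed by -0.11 ± 0.12 (SE), and its interval ran from 76.9% to 112.0% of wild-type. Lrp1, a receptor for remnant particles, differed by 0.04 ± 0.19, with an interval from 77.3% to 137.4%. Lcat, the secreted enzyme that esterifies cholesterol on HDL, differed by 0.15 ± 0.13, with an interval from 90.2% to 135.8%. Their limma adjusted p ran from 0.804 to 0.97. A dim Lrp1 probe set differed by 0.37. Heterozygous liver 2 was the highest liver for all 3, and without it the difference of Lrp1 was -0.12.

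A further list of 37 sterol genes, drawn up with earlier results of these data known, had 30 measured. Of these 2 had an unadjusted p under 0.05 (6.67%, against 9.14% of all genes), both lower, and 0 passed over all genes. Insig2, which holds the SREBP complex in the endoplasmic reticulum when sterol is plentiful, was at 10.10, 9.76, 10.15 and 10.07 in heterozygous and 11.19, 10.94, 11.63 and 10.70 in wild-type livers. Its difference was -1.09 ± 0.18 (SE, limma adjusted p = 0.11), further from 0 than that of any member. Cyp27a1, which makes a side-chain oxysterol on the way to bile acids, differed by -0.30 ± 0.11 (SE, limma adjusted p = 0.441). The list's median difference was -0.07, and 17 of the 30 genes were below 0. Srebf2, which encodes SREBP-2, differed by -0.13, and Nr1h3, which encodes LXR alpha, by -0.12, both with overlapping groups. Insig1, a second brake on SREBP and itself an SREBP target, differed by -0.08.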

How the data were processed

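Liver RNA (TRIzol) was biotin-labelled for Affymetrix mouse arrays, per the labels' protocols. The deposited values are log2 signals made by the authors with RMA, per the submitters' processing notes, which name no software or settings in the form read here. That the scale is log2 was taken from the range of values. No depth applies to arrays, and the number of arrays limits precision.

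The table held 45101 probe sets. The 64 controls were left out, and 34945 probe sets had exactly 1 symbol, 932 several and 9160 none. Genotypes were compared with limma 3.58.1 in R 4.3.3 over 18193 genes (lmFit, eBayes, two-sided), with Benjamini-Hochberg adjustment over all genes. Single values were compared with exact permutation tests over 70 assignments. The fit was tested on simulated data.

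All 28 measured members were named, with other probe sets that departed by over 0.3 log2 units, or had the other sign with an unadjusted p under 0.05 for either. Further probe sets were added after their values were seen. Other sterol genes were named at an unadjusted p under 0.05, and 3 that the rule always named had no probe set with exactly 1 symbol and were not analysed here. Insig1, Srebf2, Nr1h3 and the Kupffer cell, lymphocyte and further acute phase genes were added after their values were seen. Members and lists were chosen with earlier results of these data known. Same-numbered animals were checked for pairing and were treated as unpaired in the main fit. Alternatives covered probe set choice, dim genes (mean under 6), variance model, weights, normalisation, control signals and each array left out.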

Additional observations from a re-analysis of the deposited data

Results flagged for a closer look

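With 28 genes in 2 groups of 4 livers, 56 sets of values were checked for a liver far from the others, and 2 held one, where chance gives about 1 in 20. For Lss in heterozygous livers, liver 2 was at 8.863, with the nearest at 8.055 and the lowest at 7.929. For Lipa in heterozygous livers, liver 3 was at 9.653, below the nearest at 9.92 and the highest at 9.96.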

How the results depend on the processing

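Of 447 differences of single members under 16 alternatives, 427 kept their direction, 20 turned, and 0 of the 28 genes passed over all genes under any. When all probe sets per gene were averaged Hmgcs1 was at 0.0193, Ggps1 at 0.0498, Lss at 0.0226 and Msmo1 at 0.0297, and without _x_at and _s_at probe sets Lss was at 0.23. With the 3' minus 5' control signal as covariate Lss was at 0.032 and Ebp at 0.0211. With 1 array left out the range was -0.26 to 0.0441 for Pmvk, -0.0124 to 0.24 for Idi1, -0.28 to 0.031 for Lss, -0.23 to 0.0831 for Msmo1, -0.20 to 0.0247 for Hsd17b7, -0.22 to 0.0683 for Ebp, -0.20 to 0.0013 for Dhcr7 and -0.12 to 0.15 for Lrp1.

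The 9 genes called over all genes became 4 with the mean of probe sets, 1 with dim genes left out, and 3 to 20 with 1 array left out (3 without heterozygous liver 1, 5, 4 and 5 without wild-type livers 1, 2 and 3, and 20 without wild-type liver 4). Lower members whose groups do not overlap numbered 4 with the mean of probe sets and 2 to 5 with 1 array left out. Lower members at an unadjusted p under 0.05 numbered 2 to 5 with 1 array left out, and higher ones 3 to 6. Other sterol genes at that p numbered 4 with the control signal covariate and 1 to 4 with 1 array left out, and Insig2 passed over all genes without wild-type replicate 4 (-1.23, adjusted p = 0.0474 by limma). Synthesis genes below 0 numbered 12 to 16 of 18 over all alternatives. The median of the synthesis genes ran from -0.21 to -0.08 over all alternatives and that of the other members from 0.20 to 0.33. Mvd, Mvk, Abcg5 and Abcg8 had an unadjusted p under 0.05 under 16 of 16 alternatives, Abca1 under 15, Stard4 under 14 and Tm7sf2 under 11. The causes were not tested.

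Mtap had an adjusted p of 0.0538 with dim genes left out and from 0.0451 to 0.121 with 1 array left out. With the replicate number as a block 6 genes passed over all genes in place of 9 (Mtap adjusted p = 0.112), 0 of them members, and the differences stayed as they were (Mvd adjusted p = 0.186, Abcg8 0.211). The correlation of deviations between same-numbered animals was -0.104, 0.146, 0.03 and 0.142, and 1 of 4 heterozygous animals correlated best with its own number. No pairing by number was seen, though with so few animals this check cannot exclude one.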
